A study of Mus musculus with 14 samples.

Results

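The 8 genes described here encode signals and receptors of the neurotrophin and neuregulin-ErbB4 pathways: the ligands Bdnf, Ntf3, Nrg1 and Nrg3, the neurotrophin-induced secreted protein Vgf, and the receptors Ntrk2, Ntrk3 and Erbb4. They were found by symbol among the 39017 gene rows of the count table. All 8 passed the filter on low counts, which kept 21298 genes for testing. RNA was sequenced from hippocampal parvalbumin (PV) neurons of mice that did or did not go through chronic social defeat stress (CSDS), in which a male mouse was attacked by an unfamiliar CD-1 aggressor on each of 10 days. All sequenced mice, controls included, were male and of C57BL/6 background. They were 8 to 12 weeks old when behavioral work began and carried a Cre-dependent EGFP-L10a allele with PV-Cre. Cre in PV cells switched on the tagged ribosomal protein L10a, so that translating ribosome affinity purification (TRAP) pulled down the RNA on ribosomes of cells that express or once expressed the driver. The TRAP libraries came from 4 non-defeated mice (numbers 1, 6, 9 and 11), 4 resilient mice with a social interaction ratio over 1 (3, 5, 7 and 8) and 3 susceptible mice with a ratio under 1 (2, 4 and 10). Both hippocampi of 1 mouse made 1 TRAP sample. The 3 input libraries (12, 13 and 14) held total RNA from hippocampus of non-defeated mice, taken before the pull-down, and how many mice gave each is not stated.

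Neurotrophins are secreted proteins that bind receptor tyrosine kinases: BDNF binds TrkB, the product of Ntrk2, and neurotrophin-3, the product of Ntf3, binds mainly TrkC, the product of Ntrk3. In the hippocampus BDNF is made mostly by excitatory neurons, and its signal through TrkB is known for its role in the maturation of PV interneurons and in synaptic plasticity. Neuregulins are growth factors with an EGF-like domain that bind ErbB receptors. ErbB4 is concentrated in interneurons of the forebrain, and signaling from neuregulins to ErbB4 is known for shaping the excitatory synapses that PV cells receive.

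The genes span a wide range of sizes in the GRCm38 (mm10) annotation. Bdnf lies at chr2:109674700-109727007 on the plus strand, Ntf3 at chr6:126101412-126166910 on the minus strand, Vgf at chr5:137026392-137033351 on the plus strand and Ntrk2 at chr13:58806569-59133970 on the plus strand. Ntrk3 lies at chr7:78175959-78738012, Nrg1 at chr8:31814551-32884029, Nrg3 at chr14:38368952-39473088 and Erbb4 at chr1:68032186-69108059, all on the minus strand. Only exons of Bdnf and Nrg1 overlap exons of another gene, in both cases on the opposite strand. RefSeq (GRCm38.p6) gave 12 promoter windows for 5 of the 8 genes, each reaching from 250 bases before to 50 bases after a transcript start. The 2 windows below belong to those of the 8 genes with the largest excess in TRAP RNA over input (Erbb4) and in input over TRAP RNA (Bdnf). They are printed 5′ to 3′ on the gene's own strand, chr1:69108010-69108309 (minus) for Erbb4 and chr2:109692186-109692485 (plus) for Bdnf, with capitals marking the core of a cyclic AMP response element (TGACG, read on either strand).
Erbb4: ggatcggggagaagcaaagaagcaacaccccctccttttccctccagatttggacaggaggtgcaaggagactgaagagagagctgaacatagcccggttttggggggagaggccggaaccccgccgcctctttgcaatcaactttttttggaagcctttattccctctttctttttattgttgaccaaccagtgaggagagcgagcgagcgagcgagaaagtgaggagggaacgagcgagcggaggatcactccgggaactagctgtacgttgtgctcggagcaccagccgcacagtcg
Bdnf: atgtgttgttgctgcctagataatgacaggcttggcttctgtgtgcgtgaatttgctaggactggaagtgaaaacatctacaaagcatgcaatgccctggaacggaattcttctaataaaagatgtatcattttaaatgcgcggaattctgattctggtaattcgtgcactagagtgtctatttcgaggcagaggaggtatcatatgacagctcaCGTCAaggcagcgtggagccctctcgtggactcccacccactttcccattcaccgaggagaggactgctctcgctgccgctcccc
The core lies 35 bases before this transcript start of Bdnf and was found in 1 of the 12 windows, against 20.8% of all 32817 RefSeq promoter windows of this length. Most of the 12 windows belong to Bdnf, and the printed window is the only Bdnf window with the core. The full palindrome that contains the core, TGACGTCA, was in none of the 12 windows and in 1.79% of all windows. The Erbb4 window also held no TATA box (TATAAA), E-box (CACGTG) or GC box for the factor SP1 (GGGCGG) on either strand and was 55.3% G and C, where the median of all windows was 52.7%. The counts are per gene, so they do not tell which transcript start was used.

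Library totals ran from 64110214 to 94726962 counts. The TRAP libraries were checked against cell type markers: 8 of 8 PV and pan-GABA neuron markers were higher in non-defeated TRAP than in input at adjusted p under 0.05, while 6 of 7 excitatory neuron, 6 of 7 astrocyte, 6 of 7 oligodendrocyte lineage and 6 of 6 microglia markers were lower. Markers of other cells were not all lower: among 8 other interneuron markers 2 were higher, Sst (3.05-fold, adjusted p = 0.000753) and Npy (6.92-fold, adjusted p = 7.1e-06), and 5 were lower, and among 6 endothelial and mural markers Cldn5 was higher (2.34-fold, adjusted p = 0.0136). The TRAP libraries were not alike in one respect. The summed level of 5 markers of thalamic neurons (Tcf7l2, Prkcd, Rgs16, Lef1 and Slc17a6) was 575 CPM (counts scaled to a common library total) in resilient 7, 321 in non-defeated 9, 197 in non-defeated 11, 120 in susceptible 10 and 331 in input 14. In the other 9 libraries it ran from 29.6 to 85.6 CPM. All levels, the marker sums included, are CPM normalized by the trimmed mean of M-values (TMM). Log2 fold changes, standard errors (SE) and adjusted p-values come from edgeR's quasi-likelihood test over all 21298 genes.

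Per kilobase of exon, which allows levels of different genes to be compared, the 8 genes stood in a different order in PV-neuron TRAP RNA and in input. In non-defeated TRAP the mean RPKM (normalized CPM per kilobase of exon) was 23.7 ± 2.89 for Vgf, 6.18 ± 0.258 for Ntrk2, 4.11 ± 0.426 for Erbb4, 2.83 ± 0.524 for Ntf3, 2.63 ± 0.320 for Nrg3, 1.31 ± 0.0981 for Bdnf, 0.905 ± 0.0994 for Ntrk3 and 0.27 ± 0.229 for Nrg1 (SD, n = 4). In input it was 13.3 ± 0.629 for Vgf, 7.05 ± 0.241 for Ntrk2, 5.22 ± 0.290 for Bdnf, 3.39 ± 0.139 for Nrg3, 2.23 ± 0.611 for Ntf3, 0.792 ± 0.111 for Erbb4, 0.662 ± 0.0635 for Ntrk3 and 0.265 ± 0.0746 for Nrg1 (SD, n = 3). Erbb4 stood above Ntf3, Nrg3 and Bdnf in TRAP and below all of them in input. Ntf3 and Nrg3 in TRAP, and Erbb4 and Ntrk3 in input, were neighbours whose means lay within the sum of their SDs. With the longest transcript in place of all exons as the length, Nrg3 at 4.46 RPKM stood above Erbb4 at 4.22 in non-defeated TRAP. Ntrk2 was then at 13.6 RPKM, because its exons cover 19292 bases in all and 8744 bases in its longest transcript. In input this length put Ntrk2 at 15.6 RPKM above Vgf at 13.9, and Ntrk3 at 1.01 above Erbb4 at 0.813.

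**Figure D1:**
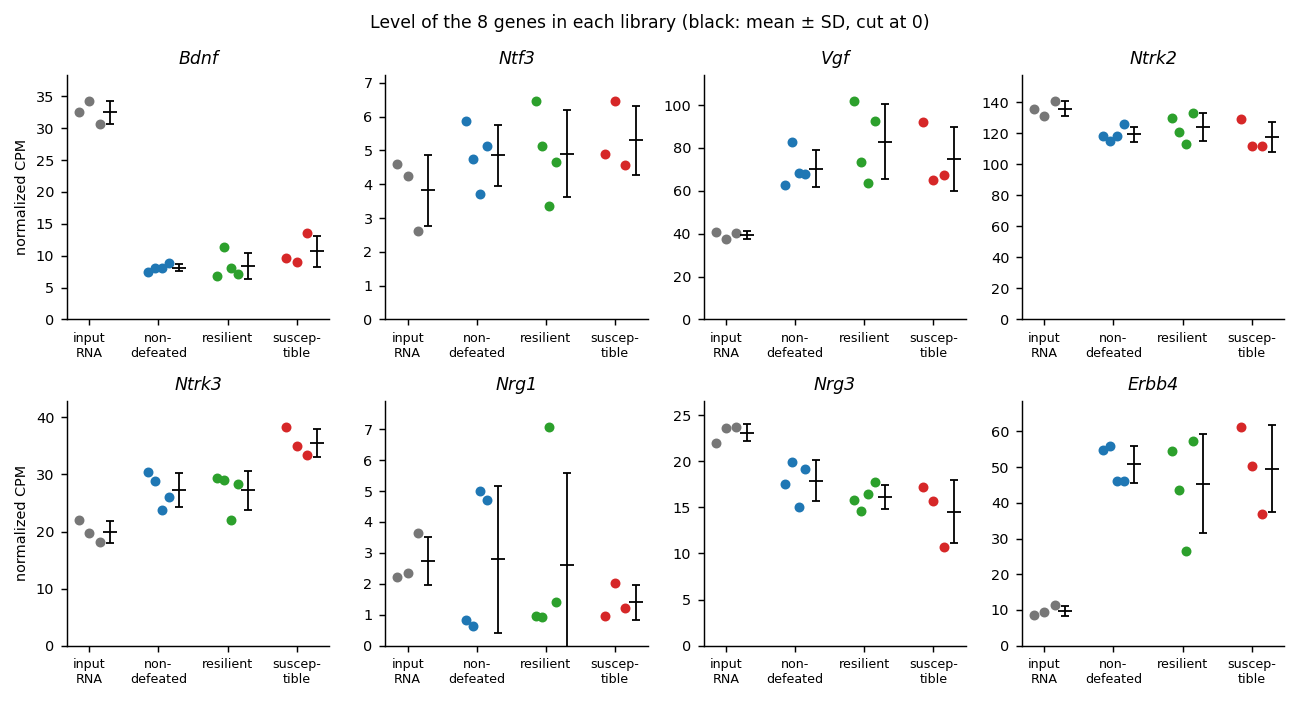
Normalized CPM (vertical axis, from 0) of each of the 8 genes in every library, with input, non-defeated, resilient and susceptible libraries along the horizontal axis and the mean ± SD of each group in black. Erbb4 lies between 26.4 and 61.2 CPM in TRAP and between 8.54 and 11.3 in input, Bdnf is highest in input, and the 3 susceptible points of Ntrk3 lie above all other points.

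The first comparison was between PV-neuron TRAP RNA and input RNA of non-defeated mice, which shows which of these genes are carried by ribosomes of the tagged cells more or less than by the tissue as a whole. Of the 8 genes, 3 were higher in TRAP (Erbb4, Vgf and Ntrk3) and 2 were lower (Bdnf and Nrg3) at adjusted p under 0.05. Over all genes tested, 27.4% were higher and 27.6% lower by the same rule, so 5 of 8 is near the share among all genes. The median log2 fold change of the 8 genes was 0.18, against -0.04 over all genes. In bulk RNA a lower level cannot be told apart from fewer cells of a type.

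Erbb4, the neuregulin receptor, had the largest difference of the 8. It was at 54.7, 55.9, 46.2 and 46.2 CPM in non-defeated mice 1, 6, 9 and 11, and at 8.54, 9.56 and 11.3 CPM in input 12, 13 and 14. Each non-defeated library held more than 4 times the highest input library. The ratio was 5.19-fold (log2 fold change 2.37, SE 0.24, adjusted p = 1.67e-06), and the exact 2-sided permutation test gave p = 0.0286, the smallest that 4 against 3 libraries allow. Over 15 alternative settings the log2 fold change ran from 2.28 to 2.62. Over all 14 libraries the gene whose log2 CPM was most like that of Erbb4 was Rbp4, a retinol carrier (Pearson r = 0.991, n = 14), and over the 11 TRAP libraries it was Gjd2, which encodes a neuronal gap junction protein (r = 0.976, n = 11). Correlations over all 14 libraries also take in the difference between TRAP and input given above. All genes of a library share its depth and cell composition.

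Bdnf was lower in TRAP than in input in every library. It was at 7.39, 8.09, 8.14 and 8.88 CPM in non-defeated mice 1, 6, 9 and 11 and at 32.5, 34.3 and 30.7 CPM in input 12, 13 and 14. The groups were far apart, and the spread within each was small (log2 fold change -2.0, SE 0.17, adjusted p = 3.8e-07, range over alternatives -2.10 to -1.90). The 7 excitatory neuron markers summed to 709 to 905 CPM in non-defeated TRAP and to 1890 to 2260 CPM in input, and their part in the Bdnf result was not tested. Neurod6, a transcription factor of hippocampal pyramidal cells, was among the 3 genes most like Bdnf over all 14 libraries (r = 0.987), after Mal, a myelin protein (r = 0.988). The antisense gene Gm45346 shares 896 bases of exon with Bdnf and moved the other way, from 35.5 to 44.6 CPM in input to 51.0 to 69.2 CPM in non-defeated TRAP (log2 fold change 0.62, adjusted p = 0.00154). Where the strand of a read is unknown, the shared bases do not tell which gene it came from.

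Vgf, whose secreted product is processed into neuropeptides and is induced by neurotrophins, was at 62.9, 82.7, 68.1 and 67.6 CPM in non-defeated mice 1, 6, 9 and 11 and at 40.8, 37.4 and 40.4 CPM in input. The ratio was 1.78-fold, with no overlap of the groups (log2 fold change 0.83, SE 0.16, adjusted p = 0.000575). Ntrk3, the receptor of neurotrophin-3, was at 30.5, 28.8, 23.7 and 26.1 CPM in TRAP and at 22.0, 19.7 and 18.2 CPM in input. Its difference was smaller but also without overlap (log2 fold change 0.45, SE 0.12, adjusted p = 0.00566). Both stayed under 0.05 in all 15 alternatives.

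Ntrk2, the BDNF receptor, was at similar levels in both kinds of RNA, at 115 to 126 CPM in TRAP and 131 to 141 CPM in input. The groups did not overlap but differed little (log2 fold change -0.19, SE 0.08, adjusted p = 0.054), and 3 of 15 alternatives put the adjusted p under 0.05. Nrg3, a neuregulin that binds ErbB4, was at 17.5, 19.9, 15 and 19.2 CPM in TRAP and at 22.0, 23.6 and 23.7 CPM in input (log2 fold change -0.37, SE 0.14, adjusted p = 0.0432). That call was lost in 9 of 15 alternatives, among them leaving out any 1 library but non-defeated 6. Without the 5 libraries high in thalamic markers its log2 fold change was -0.28 (adjusted p = 0.122), the highest adjusted p of these. Ntf3 was low in both, at 3.70 to 5.86 CPM in TRAP and 2.63 to 4.60 CPM in input, and its groups overlapped (log2 fold change 0.34, 95% confidence interval -0.18 to 0.87, adjusted p = 0.246). In all, 6 of the 8 genes had groups that did not overlap in this comparison, as had 62.0% of all genes.

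Nrg1 split the non-defeated TRAP libraries. It was at 0.84 and 0.651 CPM in non-defeated 1 and 6 but at 5.0 and 4.70 CPM in non-defeated 9 and 11, on either side of input at 2.23, 2.36 and 3.63 CPM. Libraries 9 and 11 are those with 321 and 197 CPM of the thalamic markers, and libraries 1 and 6 held 33.8 and 32.1 CPM. With all libraries the log2 fold change was 0.02 with an SE of 0.76 (adjusted p = 0.982). Without the 5 libraries over 100 CPM of thalamic markers it was -1.62 (adjusted p = 0.00754), with 2 libraries left in each group. This setting was added after seeing the data. It leaves out the highest Nrg1 values of both groups, in non-defeated 9 and 11 and input 14, so its p-value is no independent test. An antisense gene, Gm26578, shares 482 bases of exon with Nrg1 but had at most 16 counts in any library.

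**Figure D2:**
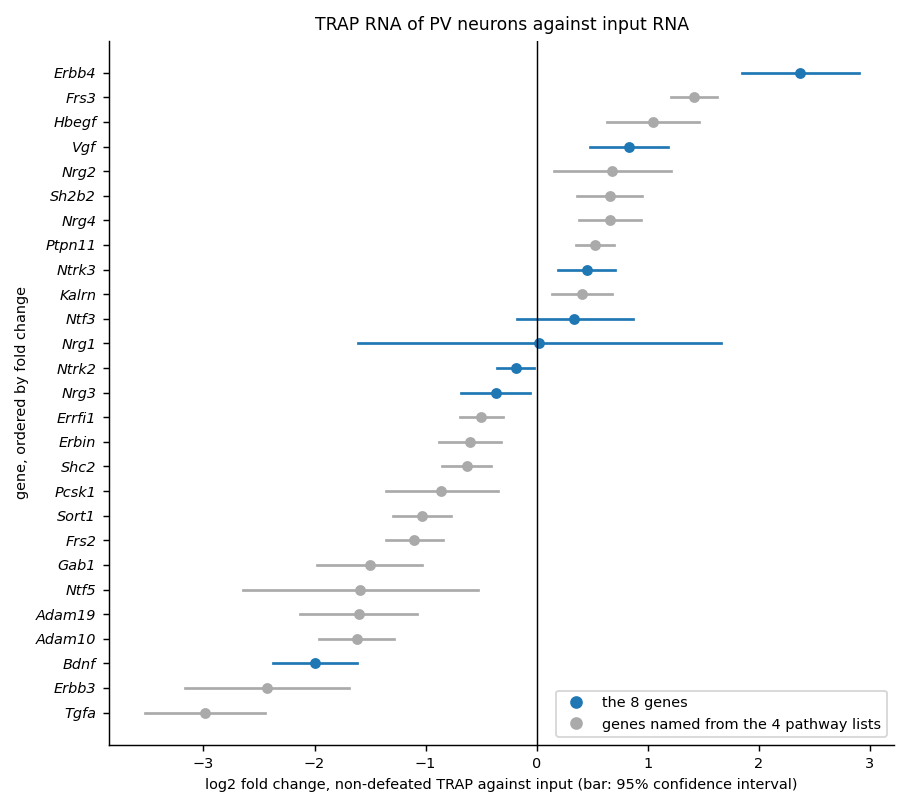
Log2 fold change of non-defeated TRAP RNA against input (horizontal axis; bars are 95% confidence intervals) for the 8 genes in blue and the genes named from 4 pathway lists in grey, ordered by fold change. Erbb4 at 2.37 and Frs3 at 1.42 lie farthest right, Tgfa at -2.99 and Erbb3 at -2.43 farthest left, and the interval of Nrg1 spans 0.

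The wider pathways were read from 4 lists of 47 other genes, of which 44 could be tested. In non-defeated TRAP against input 9 were higher, 20 were lower and 15 did not pass, beside 27.4% and 27.6% of all genes. Among 7 neurotrophin ligands and processing genes, 1 was higher and 4 were lower. Ntf5, the gene of neurotrophin-4, was lower at 0.138 ± 0.0817 CPM (SD, n = 4) against 0.422 ± 0.0917 (SD, n = 3) in input (adjusted p = 0.0136, and 0.0502 without input 13 or 0.185 without the 5 libraries high in thalamic markers). Sort1, the sorting receptor for proneurotrophins, was 2.04-fold lower, and Pcsk1, a prohormone convertase, was 1.81-fold lower.

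Among 17 neurotrophin receptors and adaptors, 3 were higher and 6 lower. The 2 docking proteins that link activated Trk receptors to Ras signaling went opposite ways, Frs3 2.67-fold higher (adjusted p = 3.65e-08) and Frs2 2.14-fold lower (adjusted p = 3.52e-06). The phosphatase gene Ptpn11 was 1.44-fold and the adaptor gene Sh2b2 1.58-fold higher. The adaptor genes Gab1 and Shc2 were 2.83-fold and 1.55-fold lower.

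Among 10 ErbB ligands and sheddases that could be tested, of 13 listed, 4 were higher and 4 lower. Higher were Hbegf (2.07-fold, 7.20 against 3.48 CPM), which encodes an EGF-family growth factor, and the neuregulin genes Nrg4 (1.58-fold) and Nrg2 (1.61-fold, adjusted p = 0.0285). The Nrg2 call was lost without non-defeated 11, input 12 or input 14 and without the 5 libraries high in thalamic markers, where the log2 fold change was 0.53 (adjusted p = 0.211). Lower were Tgfa (7.92-fold, 5.60 against 44.3 CPM), which encodes a ligand of the EGF receptor, and the metalloprotease genes Adam10 (3.07-fold) and Adam19 (3.04-fold). Among 10 ErbB receptors and partners 1 was higher and 6 were lower. Erbb3 was 5.4-fold lower, at 0.752 ± 0.304 CPM in TRAP (SD, n = 4) and 4.09 ± 0.0716 CPM in input (SD, n = 3), so that Erbb4 and Erbb3 lay on opposite sides of input. The 7 oligodendrocyte lineage markers summed to 471 to 672 CPM in non-defeated TRAP and 1750 to 2070 CPM in input, and their part in the lower genes was not tested. Kalrn, a guanine nucleotide exchange factor gene, was 1.33-fold higher (adjusted p = 0.0137, and 0.0887 without the 5 libraries). Errfi1, an inhibitor of ErbB kinases, and Erbin, a scaffold that binds ErbB2, were 1.41-fold and 1.52-fold lower.

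The second set of comparisons was among the TRAP libraries of non-defeated, resilient and susceptible mice, and asked which genes of PV neurons differ with defeat and with its behavioral outcome. No gene of the 8 passed adjusted p under 0.05 in any of the 3 comparisons. Over all genes 0% passed in resilient against non-defeated, 0.0376% in susceptible against non-defeated and 1.89% in susceptible against resilient. At an unadjusted p under 0.05 the counts were 0, 2 and 1 of 8, where the shares among all genes were 4.38%, 13.3% and 20.9%. DESeq2 on the 2 groups compared called 0 of the 8 in each. None of the 8 had groups without overlap in resilient against non-defeated mice (2.35% of all genes), 2 had in susceptible against non-defeated (8.62%) and 1 in susceptible against resilient (15.1%). The comparisons share libraries, so they are not independent of each other.

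Ntrk3 had the smallest p of the 8 in both comparisons with susceptible mice. It was at 38.3, 34.9 and 33.4 CPM in susceptible mice 2, 4 and 10, at 30.5, 28.8, 23.7 and 26.1 CPM in non-defeated mice 1, 6, 9 and 11, and at 29.3, 29.0, 22.1 and 28.4 CPM in resilient mice 3, 5, 7 and 8. All 3 susceptible libraries lay above all 8 others, as they did for 2.0% of all genes. Compared with non-defeated mice, Ntrk3 had a log2 fold change of 0.38 (SE 0.12, p = 0.00624, adjusted p = 0.221 by edgeR), with an exact permutation p of 0.0571. Against resilient mice it was 0.39 (SE 0.12, p = 0.00565, adjusted p = 0.0937), with an exact permutation p of 0.0286, the smallest possible with 3 against 4 libraries. Resilient and non-defeated mice did not differ beyond their spread (log2 fold change -0.01, 95% confidence interval -0.24 to 0.23). Among sample numbers 1 to 6, whose meaning the labels do not give, the difference of susceptible from non-defeated was 0.30 and from resilient 0.33, and among numbers 7 to 11 it was 0.42 and 0.41. The mean of Ntrk3 was thus 35.5 CPM in susceptible, 27.3 in non-defeated, 27.2 in resilient and 20.0 in input libraries. The non-defeated and resilient means were closer than their SDs. The differences of susceptible mice did not pass adjusted p under 0.05, and resilient and susceptible libraries were not compared with input.

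The unadjusted p of Ntrk3 stayed under 0.05 in all 17 alternatives of both comparisons, and the adjusted p stayed over 0.05, from 0.119 to 0.613 and from 0.063 to 0.29. The 6 endothelial and mural markers summed to 10.5 to 14.8 CPM in susceptible, 5.25 to 19.8 in resilient and 3.93 to 7.54 in non-defeated libraries, while the 8 other interneuron markers summed to 535 to 901, 462 to 814 and 459 to 661 CPM. The 3 lowest TRAP values of Ntrk3 were in resilient 7 and non-defeated 9 and 11, the 3 TRAP libraries highest in thalamic markers. The 17 alternatives of each comparison included leaving out the 5 libraries high in thalamic markers. Over these alternatives the log2 fold change ran from 0.30 to 0.44 against non-defeated mice and from 0.30 to 0.43 against resilient mice. The part of the endothelial, other interneuron and thalamic markers in the Ntrk3 result was not tested. The gene most like Ntrk3 was Arhgef12, a guanine nucleotide exchange factor gene, both over 11 TRAP libraries (r = 0.961) and over all 14 (r = 0.968).

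Bdnf was at 9.63, 9.02 and 13.5 CPM in susceptible mice 2, 4 and 10, at 7.39 to 8.88 CPM in the 4 non-defeated mice, and at 6.83, 11.4, 8.05 and 7.15 CPM in resilient mice 3, 5, 7 and 8. The susceptible and non-defeated groups did not overlap, although susceptible 4 at 9.02 CPM lay close to non-defeated 11 at 8.88 CPM. The log2 fold change was 0.40 (SE 0.17, p = 0.0376, adjusted p = 0.351), with an exact permutation p of 0.0286. Against resilient mice it was 0.36 (SE 0.17, adjusted p = 0.258), and the groups overlapped through resilient 5. The 2 highest TRAP libraries for Bdnf, susceptible 10 and resilient 5, also had the highest summed excitatory markers at 1060 and 1100 CPM, where the other 9 TRAP libraries had 529 to 905 CPM. They were also highest in summed astrocyte markers, at 444 and 357 CPM (207 to 343 in the other 9). Oligodendrocyte lineage markers went the same way, at 687 and 899 CPM (218 to 672 in the other 9). Without susceptible 10 the log2 fold changes were 0.20 against non-defeated mice (adjusted p = 0.571) and 0.16 against resilient mice (adjusted p = 0.628). The unadjusted p against non-defeated mice was under 0.05 in 10 of 17 alternatives, and it was not with the 11 TRAP libraries only, with the sample number range as a term, without non-defeated 1, 6 or 9, without susceptible 10 or without the 5 libraries high in thalamic markers, where the log2 fold change was 0.27. The part of excitatory neuron, astrocyte or oligodendrocyte RNA in these values was not tested. Over the 11 TRAP libraries the gene most like Bdnf was Gstm5 (r = 0.939). Of the 7 excitatory markers, Grin2b was higher in susceptible than in resilient mice (log2 fold change 0.63, adjusted p = 0.0416) and none of the other 6 passed. Among the 7, only Grin2b was not lower in non-defeated TRAP than in input (log2 fold change 0.01, adjusted p = 0.956 by edgeR).

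**Figure D3:**
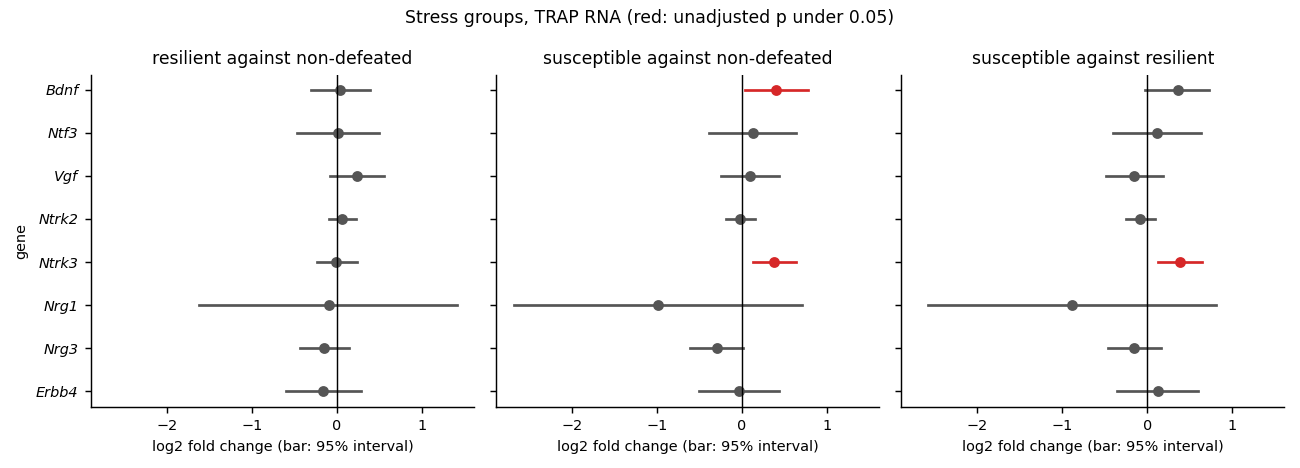
Log2 fold change of each of the 8 genes in the 3 comparisons of stress groups (horizontal axis; bars are 95% confidence intervals), with unadjusted p under 0.05 in red. Ntrk3 lies at 0.38 and 0.39 in the 2 comparisons with susceptible mice, Bdnf at 0.40 against non-defeated mice, and the intervals of Nrg1 are the widest.

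Nrg1 varied more within non-defeated and resilient mice (SD 2.37 and 2.99 CPM) than between the group means. These means were 2.8 CPM in non-defeated, 2.59 in resilient and 1.4 in susceptible mice. Nrg1 varied less among susceptible mice (SD 0.562 CPM). It was at 0.96, 0.932, 7.07 and 1.41 CPM in resilient mice 3, 5, 7 and 8 and at 0.948, 2.03 and 1.23 CPM in susceptible mice 2, 4 and 10. The 3 highest TRAP libraries, resilient 7 and non-defeated 9 and 11, were the 3 with the highest summed thalamic markers, whereas susceptible 10, at 120 CPM of those markers, was at 1.23 CPM. The log2 fold change was -0.99 in susceptible against non-defeated mice (SE 0.79, adjusted p = 0.602) and -0.89 against resilient mice (SE 0.79, adjusted p = 0.565). Without the 5 libraries high in thalamic markers these were 1.0 (adjusted p = 0.636) and 0.44 (adjusted p = 0.52), and resilient against non-defeated moved from -0.10 to 0.56 (adjusted p = 0.576). The direction of Nrg1 thus turned in all 3 comparisons when these libraries were left out. The part of thalamic neuron RNA in these values was not tested. Over the 11 TRAP libraries the genes most like Nrg1 were Coch (r = 0.983), Pmp22 (r = 0.979) and Bmper (r = 0.976).

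**Figure D4:**
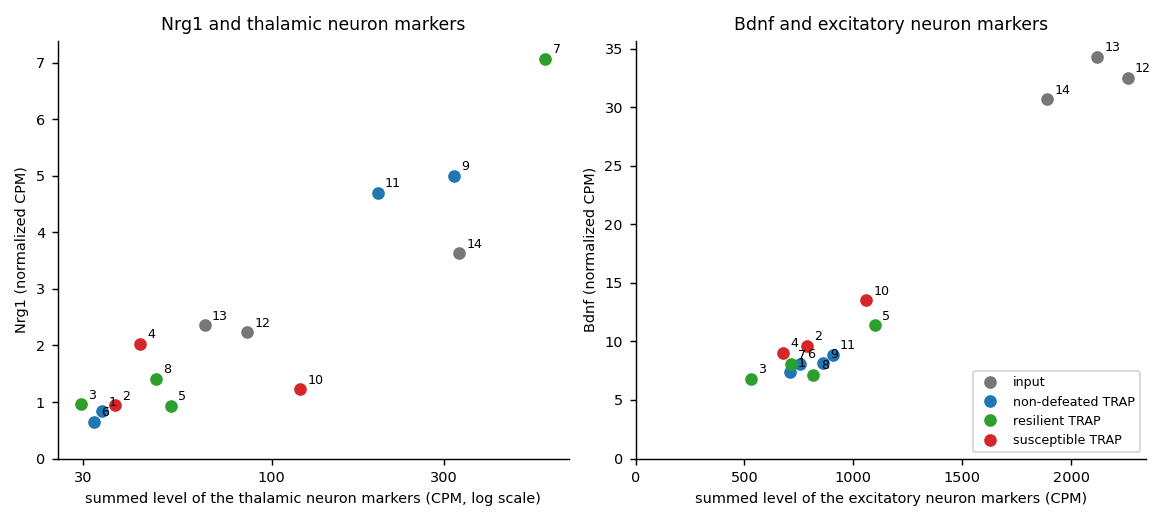
Left, Nrg1 (normalized CPM) against the summed level of 5 thalamic neuron markers (CPM, log axis); right, Bdnf against the summed level of 7 excitatory neuron markers (CPM), with 1 point per library, numbered as in the text and colored by group. Nrg1 is highest in resilient 7, at 575 CPM of thalamic markers, and among TRAP libraries Bdnf is highest in susceptible 10 and resilient 5.

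In the main fit the other 5 genes showed no difference between stress groups at an unadjusted p under 0.05. Erbb4 was at 54.4, 43.6, 26.4 and 57.2 CPM in resilient mice 3, 5, 7 and 8 and at 61.2, 50.4 and 36.9 CPM in susceptible mice 2, 4 and 10. Its lowest TRAP values were in resilient 7, which had the highest thalamic markers, and in susceptible 10, which had the lowest summed PV and pan-GABA markers (3390 CPM, others 3900 to 4740). Susceptible and resilient mice differed by 0.13 on the log2 scale, with a 95% confidence interval of -0.35 to 0.60, and differences from non-defeated mice were -0.16 in resilient (-0.60 to 0.28) and -0.04 in susceptible mice (-0.51 to 0.44). Nrg3 was at 17.2, 15.7 and 10.7 CPM in susceptible mice 2, 4 and 10, and at 15.8, 14.6, 16.4 and 17.7 CPM in resilient mice 3, 5, 7 and 8. Its difference from non-defeated mice was -0.30 in susceptible mice (SE 0.15, adjusted p = 0.389) and -0.12 without susceptible 10 (adjusted p = 0.627). Over 17 alternatives this difference ran from -0.44 to -0.12, and its unadjusted p was under 0.05 in 2 of them.

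Vgf was at 102, 73.6, 63.6 and 92.6 CPM in resilient mice 3, 5, 7 and 8 and at 91.9, 64.9 and 67.3 CPM in susceptible mice 2, 4 and 10. The groups overlapped, and the largest difference was 0.24 in resilient against non-defeated mice (95% confidence interval -0.08 to 0.55). Over 18 alternatives that difference ran from 0.12 to 0.34, and its unadjusted p was under 0.05 only without resilient 7. Ntrk2 was at 113 to 133 CPM in resilient and 112 to 129 CPM in susceptible mice. Its log2 differences were 0.06, -0.02 and -0.08 in the 3 comparisons, and their 95% confidence intervals together ran from -0.25 to 0.22. Ntf3 was at 3.35 to 6.45 CPM in resilient and 4.56 to 6.47 CPM in susceptible mice, with log2 differences of 0.01, 0.13 and 0.11 and confidence intervals that together ran from -0.47 to 0.64.

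Of the 44 other pathway genes, 1 passed adjusted p under 0.05 among the stress comparisons. Shc3, a neuronal adaptor that binds activated Trk receptors, was lower in susceptible mice, at 13.1, 13.2 and 11.9 CPM in mice 2, 4 and 10 against 18.8, 19.6, 20.0 and 26.3 CPM in resilient mice 3, 5, 7 and 8. The non-defeated mice, at 16.8 to 24.1 CPM, also lay above every susceptible mouse. The log2 fold change against resilient mice was -0.74 (SE 0.18, adjusted p = 0.0499). The same value for susceptible against non-defeated libraries was -0.68 (adjusted p = 0.169). Against resilient mice the call was lost when any 1 of the 7 libraries was left out and held in 5 of 17 alternatives, with adjusted p from 0.000663 to 0.162. At an unadjusted p under 0.05 the counts were 2, 6 and 8 of the 44 in resilient against non-defeated, susceptible against non-defeated and susceptible against resilient mice, near the shares of 4.38%, 13.3% and 20.9% among all genes.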

How the data were processed

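The authors trimmed reads with fastp and aligned them with STAR (2.5.3a in the processing notes, which also name HTSeq; the study's methods give another version) to mm10, and deposited whole-number read counts per gene without normalization. The annotation, counting mode and strand setting are not given in the sources used here. Libraries were made from 1 ng of cDNA and read as single 150 bp reads. GENCODE mouse release M21 named 37607 of 39017 rows, and 0.824% of counts lay in unnamed rows.

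Counts of all 14 libraries were fitted together in R 4.3.3 with edgeR 4.0.16 (TMM, default filter on low counts, quasi-likelihood test, 2-sided, Benjamini-Hochberg adjustment). A gene was called at adjusted p under 0.05. Exact permutation tests used log2 CPM with a prior count of 2. The code was tested on simulated data. Each TRAP library came from 1 mouse per the labels' design text. Groups followed the labels.

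Members, pathway lists and marker lists were chosen with earlier results of these data known. Named were all 8 genes, list genes called between stress groups and, per list, the 3 smallest p-values in each direction for TRAP against input, and the genes with the highest correlation to a member. A further list gene named this way is left out of the text and plots. Nrdc was matched through its older name Nrd1. Alternatives were RLE factors, no filter, at least 10 counts in every library, the likelihood ratio test, DESeq2 1.42.0, fewer groups, a term for the sample number range, a GC offset, each library left out and, added after seeing the data, 5 libraries left out.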

Additional observations from a re-analysis of the deposited data

Results flagged for a closer look

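Of 16 sets of 4 libraries (8 genes in the non-defeated and the resilient group), 2 held a value that stood apart from the other 3 by Dixon's test, which flags about 1 set in 20 by chance. Both were in resilient 7. Nrg1 was at 7.07 CPM there, with a gap to the next library of 0.922 of the range, against a critical value of 0.829. Ntrk3 was at 22.1 CPM in the same library, below the other 3 resilient mice, with a gap of 0.871 of the range. Resilient 7 also had the highest summed thalamic markers (575 CPM) and the lowest Erbb4 (26.4 CPM) of the TRAP libraries. Without it, the log2 fold change of Ntrk3 in susceptible against resilient mice was 0.30 (adjusted p = 0.205 by edgeR).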

How the results depend on the processing

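Under every alternative run, 0 of the 8 genes were called between stress groups, and 4 to 6 were called in TRAP against input, where the main count was 5. Of 536 alternative values for single genes, 478 kept their direction and side of the threshold, 9 lost and 3 gained a call, and 46 changed sign, to values between -0.15 and 0.14 in genes other than Nrg1. Of 316 values for genes named from the lists, 297 kept direction and side and 19 lost a call. Among the 8 genes, the calls lost were all of Nrg3 and those gained of Ntrk2, both in TRAP against input. Nrg1, counted with the sign changes, also passed there without the 5 libraries high in thalamic markers (adjusted p = 0.00754 by edgeR). That setting was added after seeing the data and left out the highest Nrg1 values of both groups. The calls lost from the lists were of Shc3 in susceptible against resilient and of Nrg2, Ntf5 and Kalrn in TRAP against input. Counts over all genes moved more, in susceptible against resilient from 403 to between 0 and 1099 and in susceptible against non-defeated from 8 to between 0 and 189. The members at an unadjusted p under 0.05 moved between 1 and 3 in susceptible against non-defeated (2 in the report), between 1 and 2 in susceptible against resilient (1) and to 2 without resilient 7 in resilient against non-defeated (0).

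Sign changes with all libraries were as follows. Ntrk3 in resilient against non-defeated was 0.00 without a filter on low counts and 0.02 with the GC offset. With the sample number range as a term, Ntf3 was -0.01 and Nrg1 0.01 in resilient against non-defeated, and Nrg1 was 0.04 in susceptible against non-defeated and 0.03 in susceptible against resilient. Nrg1 in TRAP against input was -0.01 with at least 10 counts in every library. Without the 5 libraries high in thalamic markers, Nrg1 was -1.62 in TRAP against input, 0.56 in resilient against non-defeated, 1.0 in susceptible against non-defeated and 0.44 in susceptible against resilient. There, Ntrk2 was 0.05 and Erbb4 0.01 in susceptible against non-defeated, and Nrg3 was 0.04 in susceptible against resilient.

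With each library left out in turn, Nrg1 ran from -0.42 to 0.36 in TRAP against input, from -1.34 to 0.34 in resilient against non-defeated and from -1.25 to 0.35 in susceptible against resilient. In resilient against non-defeated, Bdnf ran from -0.15 to 0.13, Ntf3 from -0.15 to 0.16, Ntrk3 from -0.07 to 0.08 and Erbb4 from -0.29 to 0.03. In susceptible against non-defeated, Erbb4 ran from -0.22 to 0.14, Ntf3 from -0.04 to 0.23, Ntrk2 from -0.10 to 0.01 and Vgf from -0.09 to 0.18. In susceptible against resilient, Erbb4 ran from -0.06 to 0.30, Ntf3 from -0.06 to 0.27 and Nrg3 from -0.29 to 0.03. The cause of the sign changes was not tested. No paired analysis was possible because the groups share no sample number. Groups held 3 or 4 mice, and depth does not separate reads of Bdnf from those of its antisense gene.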
